A study of Mus musculus with 2 samples.

Results

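Desmin (Des), vimentin (Vim), synemin (Synm), syncoilin (Sync) and plectin (Plec), the genes of the muscle intermediate filament and of its main crosslinker, were described in skeletal muscle RNA. The 5 genes were taken by name from 55536 annotated mouse genes. The RNA was total RNA of gastrocnemius, a calf muscle made up mostly of fast fibres, from male mice of the strain B6CASTF1/J, an F1 hybrid of C57BL/6J and CAST/EiJ, at 8 to 10 months of age. The labels give 1 untreated group of 2 animals with 1 library each, here replicate 1 and replicate 2, and number the animals under 1 shared donor identifier. Each library was made from 300 ng of RNA with external spike-ins added. The labels give no genotype, treatment or time that differs between the animals, so the comparisons below are between genes, between transcripts of a gene and between the 2 libraries. The tissue was whole muscle of many cell types, and reads of the C57BL/6J and CAST/EiJ alleles were not separated.

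Intermediate filaments are rope-like polymers that carry mechanical load in a cell. In a muscle fibre desmin, a type III filament protein, surrounds the Z-discs and ties neighbouring myofibrils to each other, to the sarcolemma at the costameres, to mitochondria and to nuclei. Synemin and syncoilin do not form long filaments alone but join desmin filaments and link them to the dystrophin-associated complex, whereas vimentin is the type III protein of fibroblasts, endothelium, smooth muscle and immature muscle cells. Plectin is a very large linker of the plakin family whose C-terminal part binds desmin, while alternative first exons give it N termini that direct it to different places in the fibre, among them Z-discs, sarcolemma, mitochondria and the nuclear envelope.

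Levels are given as TPM, a relative abundance which divides reads by transcript length and scales every library to the same sum, so that genes can be compared with each other. Gene counts summed to 36792619 in replicate 1 and 37752252 in replicate 2. At that depth the limit that a count of 0 allows, taken as 3 counts, was 0.0815 CPM in replicate 1 and 0.0795 CPM in replicate 2, where CPM are counts scaled to their library total, a limit for counting error alone. Each ± gives an SD over the 2 animals. The tissue label was checked against fibre markers. The first fibre marker list held Ckm, Acta1 and the fast fibre genes Atp2a1, Tnnt3, Mylpf, Myh4, Pvalb and Actn3. In it 8 of 8 genes were present, at a median of 12241 TPM. In a separate slow fibre list 8 of 8 genes were present, at a median of 182 TPM.

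Des, the filament subunit itself (ENSMUSG00000026208.9, chromosome 1, 75360329 to 75368579, plus strand, mm10), had 1051 TPM in replicate 1 and 1111 TPM in replicate 2. It stood at rank 35 and rank 34 among 22015 nuclear protein-coding genes. Its mean of 1081 ± 42.2 TPM placed it among abundant enzymes of glycolysis, with the phosphoglycerate mutase gene Pgam2 next above it at 1081 TPM and the triosephosphate isomerase gene Tpi1 next below it at 1054 TPM. In the second deposited quantification Des had 1143 and 1136 TPM.

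Synm (ENSMUSG00000030554.16, chromosome 7, 67730160 to 67759742, minus strand), which encodes the large filament protein that ties desmin to the costamere, had 239 TPM in replicate 1 and 220 TPM in replicate 2. Its rank was 204 in replicate 1 and 222 in replicate 2, and its mean of 229 ± 13.6 TPM lay between those of the peroxidase gene Gpx4 (233 TPM) and the complex I gene Ndufab1 (228 TPM). In the second quantification it had 203 and 188 TPM, so it was higher in replicate 1 in each. Sync (ENSMUSG00000001333.9, chromosome 4, 129287617 to 129308559, plus strand), whose product binds desmin and alpha-dystrobrevin, had 20.6 TPM in replicate 1 and 21.9 TPM in replicate 2, and 18.3 and 19.2 TPM in the second quantification. Its rank was 2505 and 2305, with a mean of 21.2 ± 0.955 TPM next to those of Ppa2 and Smoc2. The 2 desmin partners were therefore far apart in level, and neither gene's libraries overlapped those of the other.

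Vim (ENSMUSG00000026728.9, chromosome 2, 13573927 to 13582826, plus strand) had 35.1 TPM in replicate 1 and 38.0 TPM in replicate 2. Its rank was 1517 and 1373, with a mean of 36.5 ± 2.06 TPM, next to those of Bcat2 and Lmcd1, and the second quantification gave 29.5 and 31.3 TPM. In a bulk sample such as this, fewer cells of a type and less RNA per cell cannot be told apart, so the level of Vim does not say how many cells held it. The markers of cell types known to express vimentin were present beside it: 10 of 10 fibroblast markers at a summed 178 TPM in replicate 1 and 183 TPM in replicate 2, 10 of 10 endothelial markers at 123 and 153 TPM, and 10 of 10 smooth muscle and pericyte markers at 171 and 203 TPM. Most of that last sum came from Abcc9, at 63.3 and 60.65 TPM, and Rgs5, at 58.4 and 66.5 TPM. Other vimentin-expressing types were at lower levels or patchier, with 5 of 10 macrophage markers at 1 TPM or more in both libraries (summed 15.3 and 13.5 TPM) and 5 of 10 Schwann cell markers (37.0 and 40.4 TPM). Of the adipocyte markers 9 of 10 passed (461 and 420 TPM, led by Car3, which muscle also expresses), and of the satellite cell markers 5 of 10, a list whose sum of 1071 and 1132 TPM was mostly Des itself. None of these lists had a gene at 0, and their part in the level of Vim was not tested.

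Plec (ENSMUSG00000022565.15, chromosome 15, 76170974 to 76232574, minus strand), the crosslinker, had 389 TPM in replicate 1 and 380 TPM in replicate 2. Its rank was 109 and 112, and its mean of 384 ± 6.59 TPM lay between those of the ribosomal protein gene Rps25 (387 TPM) and the small heat shock protein gene Hspb6 (380 TPM). This level depended on the quantification more than that of any other of the 5 genes: in the second deposited quantification Plec had 249 TPM in replicate 1 and 234 TPM in replicate 2. The first value was 1.59 times the second, against a median of 1.16 over 6155 nuclear protein-coding genes with 5 or more TPM in both, and 2.03% of those genes stood further apart than Plec in that direction. Of the level in the first table, 191 TPM in replicate 1 and 188 TPM in replicate 2 came from annotated transcripts whose coding end is incomplete, which left 198 and 192 TPM on complete ones.

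**Figure D1:**
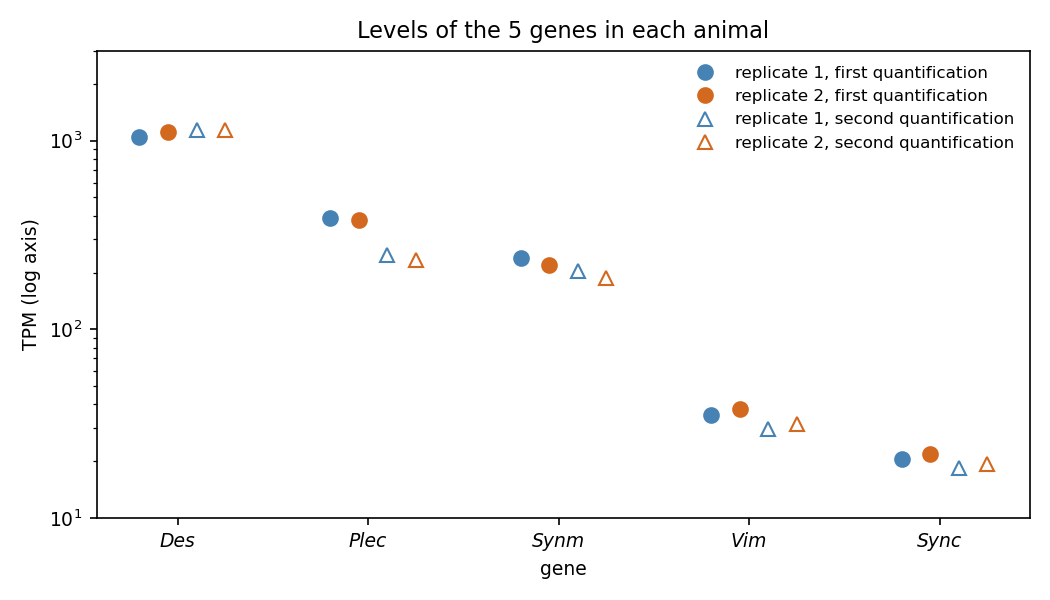
TPM of each of the 5 genes (log axis) in replicate 1 and replicate 2, from the first deposited quantification (filled circles) and the second (open triangles). Each gene's 4 points stay clear of those of the other genes except that Plec in the second quantification, at 249 and 234 TPM, reaches the range of Synm in the first, at 239 and 220 TPM.

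With all annotated transcripts counted, the order of the gene levels was Des, Plec, Synm, Vim and Sync in each library and in each quantification. The place of Plec above Synm rested on its incomplete transcripts in each quantification. On complete transcripts alone in the first, Plec had 198 TPM in replicate 1 and 192 TPM in replicate 2, below Synm at 239 and 220 TPM. In the second, Plec had 249 and 234 TPM against 203 and 188 TPM for Synm. Of that Plec level the incomplete Plec-212 carried 61.2 and 55.8 TPM, and the incomplete Plec-211 carried 30.4 and 26.5 TPM. Neighbours in this order did not overlap in any library within a quantification. With 2 libraries a gene the smallest two-sided p of an exact permutation test between a pair of genes is 0.333, so the order is described by overlap and was not tested. Relative to Des on the log2 scale of TPM plus 0.1, Plec stood at −1.43 in replicate 1 and −1.55 in replicate 2, and Synm at −2.14 and −2.34. These are 2.81-fold and 4.71-fold below Des. Vim stood at −4.90 and −4.87 (29.5-fold below Des) and Sync at −5.67 and −5.66 (50.7-fold below Des). The second quantification put Plec at −2.24 and Synm at −2.54 on the mean. The distance between the pair thus narrowed, while the order held with incomplete transcripts counted. Without division by length Plec, by far the longest of the 5 transcripts, had 81929 counts in replicate 1 and 89403 in replicate 2, against 76266 and 92254 for Des. By counts Plec was therefore above Des in replicate 1 and on the mean, and below it in replicate 2.

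Taking the 4 filament genes without the crosslinker, Des, Synm, Vim and Sync summed to 1345 TPM in replicate 1 and 1390 TPM in replicate 2. Des made up 78.1% of that sum in replicate 1 and 79.9% in replicate 2, and Synm 17.8% and 15.8%. Vim held 2.61% and 2.73%, and Sync 1.53% and 1.58%. The filament transcripts of this muscle were thus mostly those of desmin, with synemin as the main partner, in both animals.

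The annotated sequences behind these levels were largely specific to each gene. Of the 31-base words in its annotated transcripts, 99.8% of Des, 99.99% of Synm, 99.8% of Vim, 98.7% of Sync and 98.8% of Plec occurred in no other annotated gene. Words were compared on the sense strand only, so overlaps with genes on the opposite strand do not enter these percentages. Plec shared 176 words with Parp10, whose annotated end runs into the 5′ part of Plec on the same strand and which had 1.05 and 1.29 TPM, and 35 words with the related plakin gene Eppk1. Des overlaps the antisense gene Gm15179, which was listed at 27.6 TPM in replicate 1 and 24.7 TPM in replicate 2. Sync overlaps Rbbp4 on the opposite strand, at 16.9 and 16.3 TPM, and Synm overlaps Ttc23, at 8.39 and 9.76 TPM. The strand setting of the counting was not given in the sources used here, so reads of these overlapping pairs cannot be told apart where they overlap.

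Plec is known for its first exons, and the annotation gives its 22 transcripts 13 of them, numbered here from the 5′ end, plus Plec-211, which has no annotated start. The coding parts of the 3 first exons that held the largest shares of Plec in the first table are shown because they set the N terminus of proteins that share nearly all of the rest. They are on the minus strand of chromosome 15 in mm10 at chr15:76229358-76229442 (first exon 4), chr15:76200469-76200484 (first exon 9) and chr15:76199549-76199660 (first exon 10), read from GENCODE M21 transcripts, with the start codon in capitals.
Plec first exon 4: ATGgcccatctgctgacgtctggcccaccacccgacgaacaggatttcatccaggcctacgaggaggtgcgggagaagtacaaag
Plec first exon 9: ATGaagatcgtgcccg
Plec first exon 10: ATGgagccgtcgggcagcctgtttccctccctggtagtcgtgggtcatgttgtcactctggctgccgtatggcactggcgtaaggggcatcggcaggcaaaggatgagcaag

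First exon 9 holds 16 coding bases, or 5 whole codons, and is known in mouse as exon 1d, which gives the plectin variant found at Z-discs and restricted largely to striated muscle. First exon 10 holds 112 coding bases and first exon 4 holds 85. First exon 8, with 541 coding bases, is known as exon 1 and gives the longest N terminus. Beyond the first exon the messages run together, so the bases that tell them apart are few: 0.93% of the 31-base words of the first exon 9 messages occurred in no other group of Plec messages, against 1.88% for first exon 10, 0.913% for first exon 4 and 4.68% for first exon 8.

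In the first table first exon 10 (Plec-202, Plec-212 and Plec-218) held 48.3% of Plec TPM in replicate 1 and 38.6% in replicate 2, and first exon 9 (Plec-215 and Plec-219) held 27.8% in replicate 1 and 39.1% in replicate 2. Their means were 43.5% ± 6.88 and 33.5% ± 7.95 (SD, n = 2), and their ranges overlapped, so these values do not order the pair. First exon 4 (Plec-206) followed at 10.1% and 9.61%, and first exon 8 (Plec-205, Plec-207 and Plec-222) at 8.45% and 8.74%. With incomplete transcripts counted, both were below the leading pair in each animal, with SDs of 0.379 and 0.204 percentage points.

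The shares of first exons 9 and 10 did not carry over to the second quantification. There first exon 10 held 62.6% in replicate 1 and 57.6% in replicate 2, while first exon 9 held 3.67% and 4.83%. First exon 11 (Plec-217), which has no coding bases and starts just downstream of first exon 10, held 1.94% and 0.701% in the first table, against 13.5% and 16.8% in the second. Plec-211 held 1.93% and 1.27% in the first table, against 12.2% and 11.3% in the second. The mean of first exon 4 was 9.88% in the first table and 4.12% in the second, and that of first exon 8 was 8.59% and 2.53%.

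The posterior mean TPM of the first table, a smoothed estimate deposited beside the maximum-likelihood value, narrowed the gap between the animals. It gave first exon 10 a share of 42.2% in replicate 1 and 38.8% in replicate 2, and first exon 9 a share of 23.2% and 30.4%. Plec-219, a first exon 9 fragment of 254 bases with an incomplete end, carried 60.1 TPM in replicate 1 and 64.9 TPM in replicate 2 in the first table and 0 in both libraries of the second. It held 0.284% and 0.319% of the counts of Plec in the first table. Plec-212, a first exon 10 transcript of 2158 bases that also has an incomplete end, carried 123 TPM in replicate 1 and 118 TPM in replicate 2 in the first table, or 31.3% of Plec TPM on the mean, and 7.77% and 7.73% of the counts. In the second table it carried 61.2 and 55.8 TPM. Among complete transcripts alone, first exon 9 held 24.3% in replicate 1 and 43.5% in replicate 2, and first exon 10 held 32.9% and 15.03%. The leading first exon among complete transcripts therefore differed between the animals. There first exon 4 held 19.9% and 19.0% and first exon 8 held 16.6% and 17.3%, so both were above first exon 10 in replicate 2. The posterior mean over complete transcripts gave first exon 9 a share of 14.2% and 23.5% and first exon 10 a share of 21.4% and 17.4%. By that estimate first exon 4 had 20.3% and 20.4%, above first exon 9 in replicate 1 and above first exon 10 in replicate 2. The second quantification over complete transcripts gave first exon 9 a share of 6.04% and 7.80%, and first exon 10 a share of 62.4% and 54.6%.

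**Figure D2:**
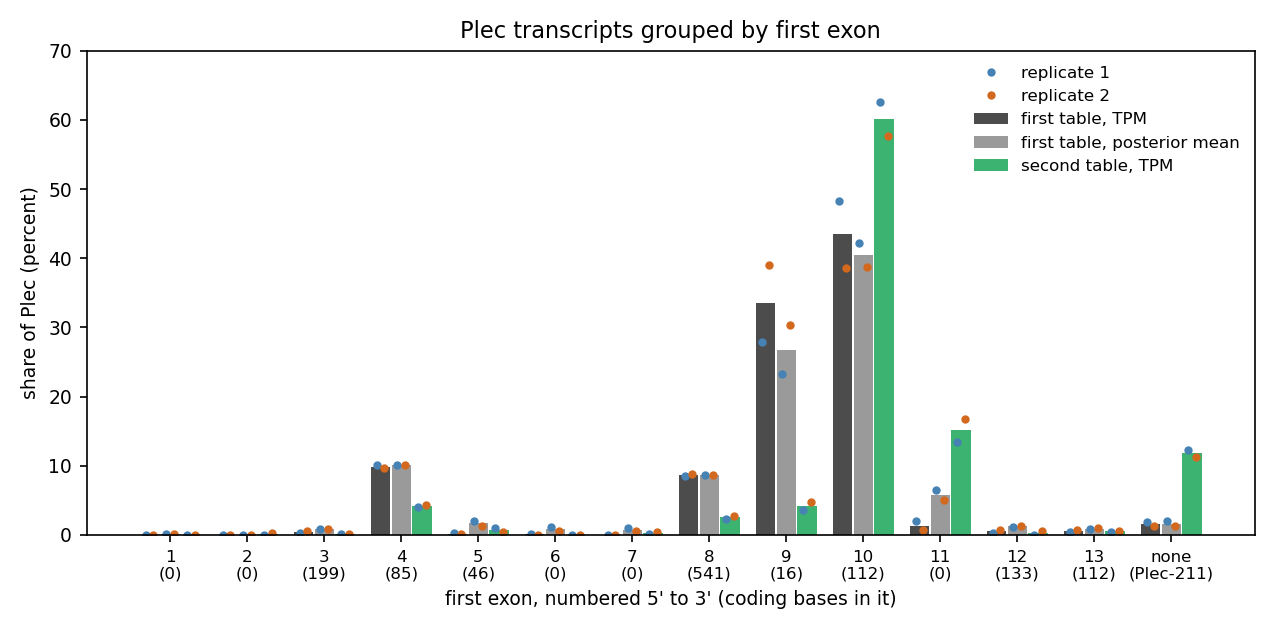
Share of Plec (percent) by first exon, numbered 5′ to 3′ with the coding bases of each in brackets, for the TPM and posterior mean of the first table and the TPM of the second. Bars are means and points the 2 animals. First exon 10 has the highest of the plotted means in each of the 3 estimates, and the bar of first exon 9 stands at 33.5% in the first table and 4.25% in the second.

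A 15-base exon of 5 codons, known as exon 2α, lies after the shared exon that follows the first exons. It lies at chr15:76194559-76194573 in mm10 and is present in 11 of the 20 annotated transcripts that span it. Plec-202 (4548 codons) and Plec-218 (4543 codons) differ by it, as the joined sequences with 30 bases on either side show, with the 15-base exon in capitals.
Plec with the 15-base exon: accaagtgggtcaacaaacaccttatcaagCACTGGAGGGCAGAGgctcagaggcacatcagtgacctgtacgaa
Plec without the 15-base exon: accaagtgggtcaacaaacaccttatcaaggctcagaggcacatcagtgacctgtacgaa

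Transcripts with the 15-base exon made up 74.0% of the spanning TPM in replicate 1 and 65.4% in replicate 2 (69.7% ± 6.09). Here the quantifications lay close together: the second gave 74.2% and 69.0%, and the posterior mean gave 69.2% and 67.0%. Among complete transcripts the mean was 41.2%, and by counts not divided by length it was 46.4%, so the share of messages with the exon depends on how far the incomplete transcripts are counted. A second small exon of 36 bases, at chr15:76193966-76194001, was all but absent, at 0.296% in replicate 1 and 0.691% in replicate 2.

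The 3381-base exon that encodes the coiled-coil rod of plectin, through which the protein pairs with itself, is annotated in all but Plec-211 of the 14 transcripts that span it. It was included in 96.3% of the spanning TPM in replicate 1 and 97.6% in replicate 2. The second quantification gave 83.2% and 84.5%. Messages that skip this exon are known to encode a rodless plectin, and their share here was that of Plec-211 alone.

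For Des the annotated full-length message Des-201, with 469 codons, held 97.9% of the gene in replicate 1 and 99.2% in replicate 2 in the first table. The second quantification gave it 65.5% and 70.7%, with nearly all of the rest on Des-202, an 835-base transcript that retains an intron, at 34.4% and 29.1%. Of the words of Des-202, 68.9% are also in Des-201. By estimated counts of the second quantification Des-202 held 9.91% and 8.00%, since a short transcript takes a larger part of TPM than of reads.

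For Synm the transcripts differ at the last exon, and the bases where they part are shown with 30 bases on either side. Synm-202, known as the H form with 1561 codons, reads through a stretch that Synm-201, the M form with 1259 codons, removes as an intron of 906 bases, and Synm-204, the L form with 371 codons, joins an earlier point of the message directly to the same last exon. The sequences are on the minus strand of chromosome 7 in mm10, spanning chr7:67733524-67734489 for Synm-201, chr7:67733524-67739134 for Synm-204 and chr7:67734430-67734489 for Synm-202, with the bases that follow the point of parting in capitals.
Synm-201: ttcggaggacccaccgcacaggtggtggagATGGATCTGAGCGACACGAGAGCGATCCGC
Synm-204: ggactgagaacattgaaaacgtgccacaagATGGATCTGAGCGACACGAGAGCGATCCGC
Synm-202: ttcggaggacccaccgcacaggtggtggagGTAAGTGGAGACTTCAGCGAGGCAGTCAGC

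Synm-201 held 88.9% of Synm in replicate 1 and 88.7% in replicate 2, Synm-202 held 7.61% and 8.77%, and Synm-204 held 3.51% and 2.37%. The M form was ahead in each animal and each quantification. The second quantification gave Synm-201 79.9% and 76.6% and Synm-202 6.22% and 6.85%, and it moved most of the difference to Synm-203, at 13.8% and 16.5%, of whose words 98.1% are also in Synm-201. It gave Synm-204 0.0497% and 0%.

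For Vim 3 transcripts shared the gene. Vim-206 held 42.8% in replicate 1 and 46.0% in replicate 2, Vim-201 29.5% and 30.1%, and the non-coding Vim-203 25.7% and 22.8%. Vim-203 is short, at 535 bases, and 90.1% of its words are also in Vim-201. By counts it held 7.54% and 6.48%, against 41.6% and 41.1% for Vim-201. Vim-201 encodes the full vimentin of 466 codons, and Vim-206, of 427 codons, lacks an 86-base exon of the part that encodes the tail. That exon is shown in capitals with 30 bases on either side (plus strand, chr2:13580654-13582502 in mm10, joined as in Vim-201).
Vim-201 exon absent from Vim-206: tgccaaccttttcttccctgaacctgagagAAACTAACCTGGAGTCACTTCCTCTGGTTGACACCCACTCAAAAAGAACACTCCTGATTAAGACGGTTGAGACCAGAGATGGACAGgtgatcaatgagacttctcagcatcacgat

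Vim-201 and Vim-206 also differ at the 5′ end, where the annotated start of Vim-201 lies 329 bases upstream of that of Vim-206 and 359 bases upstream of the RefSeq start of the gene. Vim-206 starts 30 bases upstream of the RefSeq start. The share of each transcript rests on both ends of the message, and the part of the 5′ end in these shares was not tested. The second quantification gave Vim-206 47.7% and 53.5%, Vim-201 29.9% and 29.8%, and Vim-203 20.7% and 14.98%. Sync was simple by comparison: Sync-201, with 470 codons, held 97.9% in replicate 1 and 99.2% in replicate 2, and 97.2% and 99.1% in the second quantification.

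**Figure D3:**
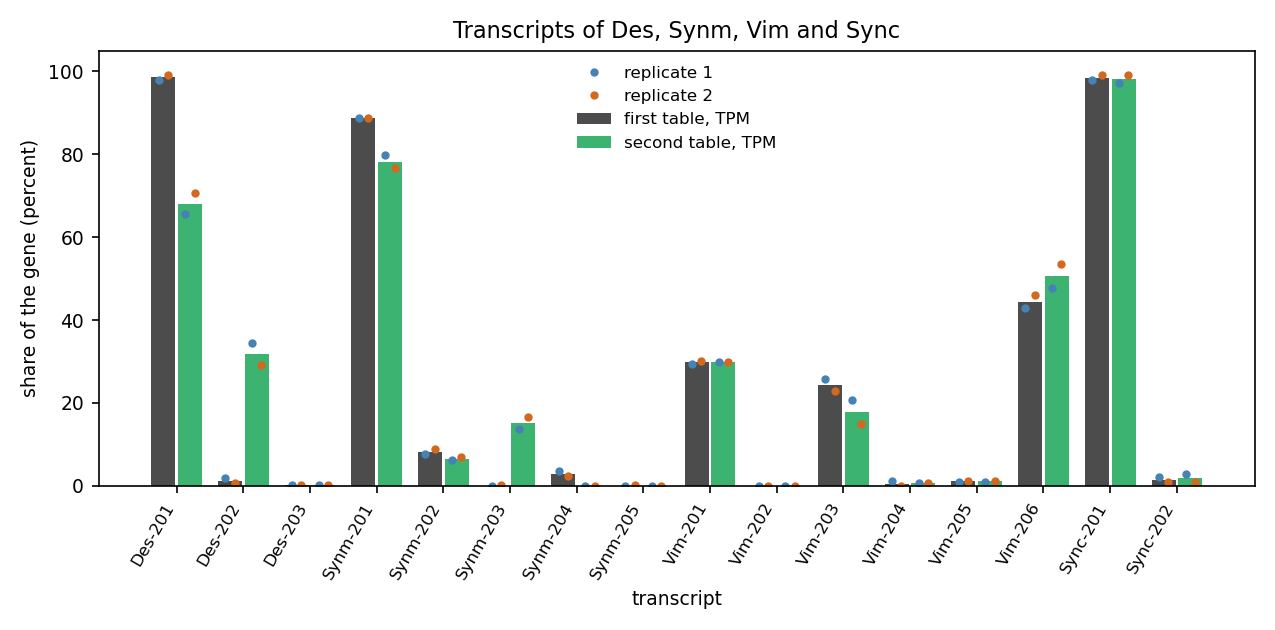
Share of each annotated transcript in its gene (percent) for Des, Synm, Vim and Sync, in the first and second tables. Bars are means and points the 2 animals. Des-202 and Synm-203 are near 0 in the first table and at 31.8% and 15.1% in the second, while Sync-201 is above 97% in each.

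Between the animals the 5 genes moved little. The ratio is given as the log2 of replicate 1 over replicate 2 after scaling by the trimmed mean of M values, and a gene is called where an exact two-sided binomial test passed 0.05 after Benjamini-Hochberg adjustment over all 14101 genes whose mean count was at least 10. That test compares 2 libraries and has no replicate check, and it called 21.6% of all genes tested. Of the 5 genes 4 were called. Synm (0.08, adjusted p = 1.22e-15 by the exact test) and Plec (0.02, adjusted p = 0.00385, exact) were higher in replicate 1, where 10.8% of all genes tested were called. Des (−0.12, adjusted p = 2.87e-67, exact) and Vim (−0.19, adjusted p = 0.00272, exact) were lower in replicate 1, as 10.7% of all genes tested were. Sync stood at −0.12 with an adjusted p of 0.165 (exact) and was not called.

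The sizes were ordinary beside those of other genes. Among 9515 genes whose mean count was at least 100 the median absolute log2 ratio was 0.116, and 70.4% lay within 0.19, the largest of the 5. In absolute size Des (−0.124), Vim (−0.192) and Sync (−0.119) lay above that median, and Synm (0.0842) and Plec (0.0244) below it. With a biological coefficient of variation of 0.1 assumed in edgeR's exact test, which still called 291 genes, none of the 5 genes was called. The direction also depended on the scaling. Scaled by spike-ins, the median over all genes stood at 0.15 and Des at 0.03, Sync at 0.03 and Vim at −0.04. Scaled by total counts, the median stood at −0.12 and Synm at −0.03 and Plec at −0.09. Each scaling adds 1 constant to every ratio, 0.15 for spike-ins and −0.11 for total counts, so the place of a gene relative to the others is the same under each by construction.

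**Figure D4:**
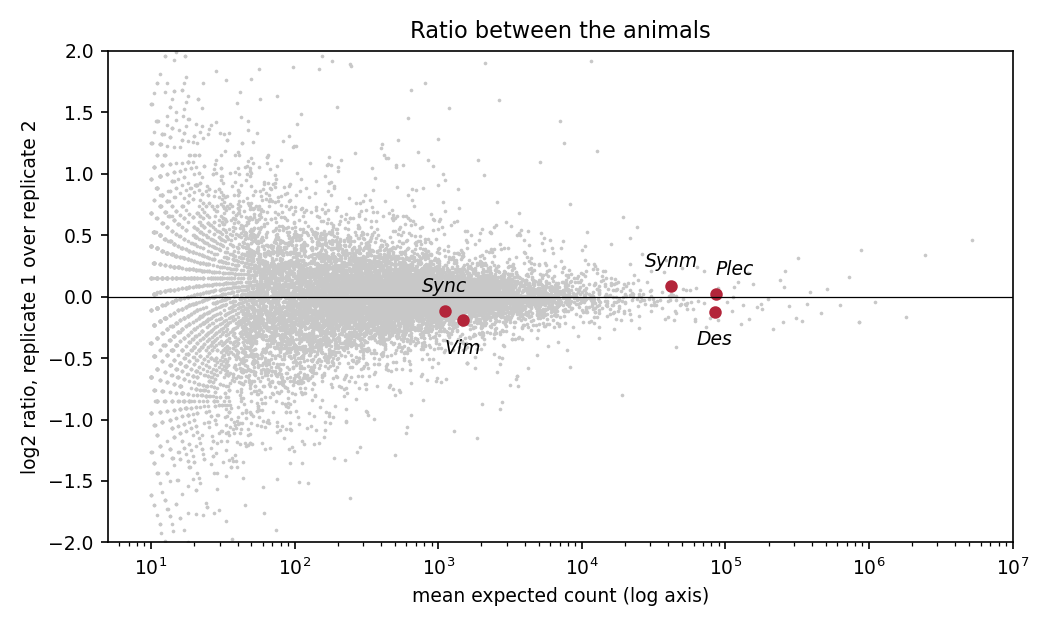
Log2 ratio of replicate 1 over replicate 2 against the mean expected count (log axis) for the tested genes, with the 5 genes in red. All 5 lie between −0.19 and 0.08. A further 103 tested genes lie outside the plotted range of 2 in either direction.

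Beside these ratios the marker lists of the 2 muscles moved as follows. All 8 slow fibre markers were higher in replicate 1, summing to 1742 TPM in replicate 1 and 1160 TPM in replicate 2, with a median log2 ratio of 0.59. The 8 markers of the first fibre list, mostly fast fibre genes, were all called lower in replicate 1. Their median was −0.11, or 0.04 when scaled by spike-ins. Smooth muscle and pericyte markers stood at a median of −0.47 and endothelial markers at −0.30. Of these 8 of 10 and 6 of 10 were called lower in replicate 1 and none higher, where 10.7% of all genes tested were called lower and 10.8% higher. By spike-ins 7 and 3 were called lower, where 4.6% of all genes tested were. There 1 smooth muscle and pericyte marker and 0 endothelial markers were called higher, where 31% of all genes tested were. By total counts 9 and 8 were called lower, where 25.7% were. Adipocyte markers stood at −0.23, or −0.08 by spike-ins, with 1 of 10 called higher and 5 of 10 lower in replicate 1. Fibroblast markers stood at −0.08, or 0.07 by spike-ins, with 1 of 10 called higher and 2 of 10 lower in replicate 1. Of 9 markers tested in each of the macrophage, Schwann cell and satellite cell lists, 1, 0 and 0 were called higher and 0, 1 and 3 lower, Des being 1 of the satellite cell markers. The slow fibre, endothelial, adipocyte and smooth muscle medians kept their signs under spike-in and total-count scaling. The part of these cell types in the ratios of Vim, Des and the other genes was not tested.

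A list of 9 other filament genes held type III and type IV genes and the lens beaded filament genes Bfsp1 and Bfsp2. Of these only Nes, nestin, passed 1 TPM in both libraries, with 7.45 TPM in replicate 1 and 5.49 TPM in replicate 2. Nestin is the filament protein of neural and muscle progenitors and of the neuromuscular and myotendinous junctions of mature fibres. It was called higher in replicate 1 (log2 ratio 0.36, adjusted p = 6.24e-07, exact binomial test). Of the lens and glial genes, Bfsp2 had 0.24 and 0.10 TPM, Gfap 0.15 and 0.03 TPM, and Bfsp1 0.04 and 0.03 TPM. The peripherin gene Prph had 0.13 TPM in each, and the neurofilament genes Nefl, Nefm and Nefh and the internexin gene Ina had at most 0.04 TPM in either library. Sync, the lowest of the 5 genes, was therefore above Nes in each library. For scale, 10675 of all 55536 annotated genes, and 9815 of the 22015 nuclear protein-coding ones, passed 1 TPM in both libraries, and the median of the protein-coding ones was 0.555 TPM.

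Keratins, the filament proteins of epithelia, were all but absent. Of 7 simple epithelial keratins none passed 1 TPM in both, the highest being Krt80 at 0.81 and 0.50 TPM. Krt18 had 0.21 and 0.08 TPM, and its usual partner Krt8 had 0 counts in each library, which allows up to 0.0815 CPM in replicate 1 and 0.0795 CPM in replicate 2. Of 20 stratified and hair keratins 18 had 0 in each library and the highest was Krt10, at 1.84 TPM in replicate 1 and 0.77 TPM in replicate 2. Of 10 skin epithelium markers 7 were at 0 in both libraries, and Trp63, at 3.54 and 3.48 TPM, was the one that passed 1 TPM in both.

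Among the other plakins, the giant linkers related to plectin, Dst (dystonin) had 186 TPM in replicate 1 and 157 TPM in replicate 2, and Macf1 had 25.6 and 27.4 TPM. Both encode linkers known to bind actin and microtubules. Plec was above Dst in each library of each quantification, with Dst at 115 and 95.6 TPM in the second. Ppl, periplakin, had 0.86 and 1.23 TPM, and the epithelial plakins Eppk1, Dsp and Evpl had at most 0.1 TPM. Of the 5 tested, Dst (log2 ratio 0.24) and Macf1 (0.07) were called higher and Ppl (−0.51) lower in replicate 1. Of all genes tested 10.8% were called higher and 10.7% lower. Macf1 stood at −0.05 when scaled by total counts, and Ppl at −0.36 by spike-ins, where it was not called.

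**Figure D5:**
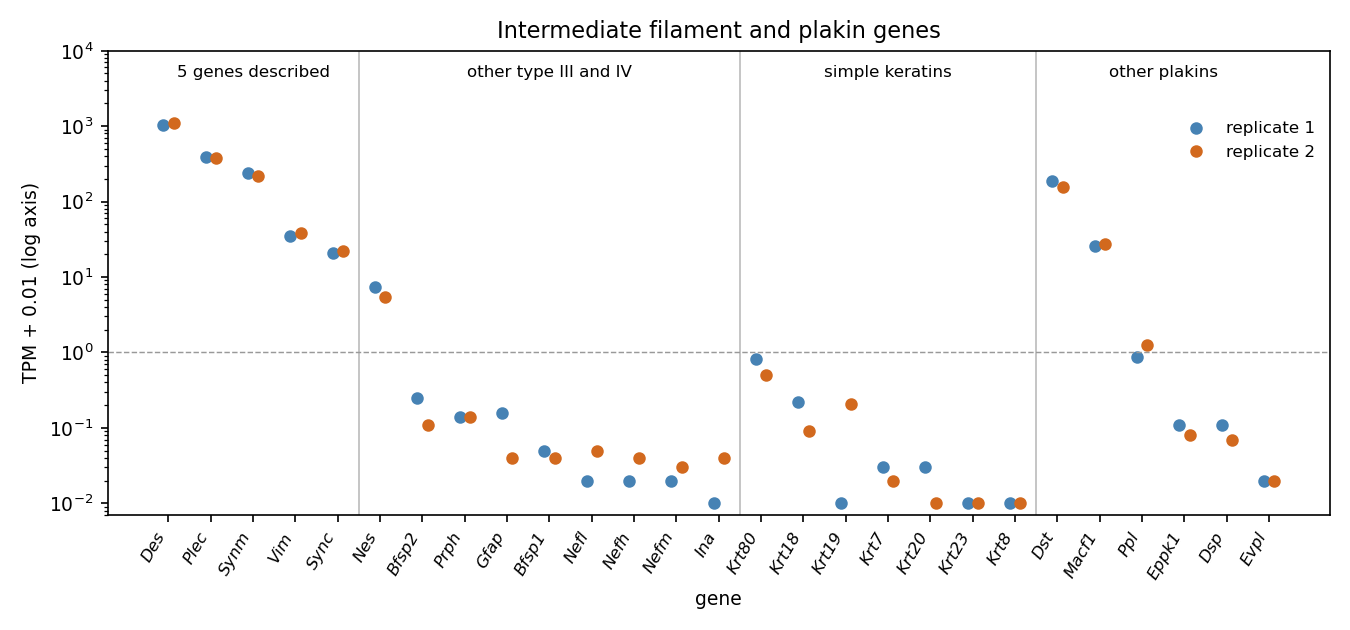
TPM plus 0.01 (log axis) in replicate 1 and replicate 2 for the 5 genes, the other type III and IV filament genes, the simple keratins and the other plakins. The group marked type III and IV also holds the lens genes Bfsp1 and Bfsp2. A dashed line marks 1 TPM. The 5 genes, Nes, Dst and Macf1 lie above the line in both animals, and Ppl above it in replicate 2 only.

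Genes for proteins known to bind desmin, synemin or syncoilin were nearly all present: 17 of 18 passed 1 TPM in both libraries, with a median of 37.2 ± 1.11 TPM. Neb, nebulin, which links desmin to the thin filament at the Z-disc, led at 3493 TPM in replicate 1 and 3139 TPM in replicate 2. The Z-disc genes Ldb3, at 643 and 654 TPM, and Myot, myotilin, at 430 and 445 TPM, followed. Of the 18, all tested, 6 were called higher and 6 lower in replicate 1, where 10.8% of all genes tested were called higher and 10.7% lower. Scaled by spike-ins 11 were called higher and 1 lower, where 31% and 4.6% of all genes tested were, and by total counts 3 and 11, where 5.21% and 25.7% were. The largest ratio among those averaging at least 100 counts was that of Dtnb, beta-dystrobrevin, at −0.45. The gene that did not pass 1 TPM was Nebl, nebulette, the cardiac relative of nebulin, with 0.27 TPM in each library.

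Of 12 genes listed for proteins reported to bind plectin, 10 passed 1 TPM in both, with a median of 16.0 TPM. The malate dehydrogenase gene Mdh1 had 275 TPM in replicate 1 and 247 TPM in replicate 2, Rack1, the scaffold of protein kinase C, had 192 and 184 TPM, and Dag1, dystroglycan, had 67.5 and 65.3 TPM. Plectin's partner in the hemidesmosomes of epithelia, the integrin beta-4 gene Itgb4, had 0.89 and 1.45 TPM and, at −0.67, the largest ratio of those averaging at least 100 counts. It and the hemidesmosome collagen gene Col17a1, with 0 and 0.06 TPM, were the genes that did not pass. Of the 11 tested, 1 gene was called higher and 6 lower in replicate 1. With spike-ins the calls were 5 and 1 and by total counts 0 and 8, against the shares of all genes given above for each scaling.

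Misfolded desmin is prone to aggregate, and small heat shock proteins and their helpers are known to hold it in check. All 10 annotated members of the list passed 1 TPM in both libraries, with a median of 91.9 ± 11.2 TPM. Cryab, alpha-B-crystallin, had 513 TPM in replicate 1 and 420 TPM in replicate 2, Hspa8 559 and 371 TPM, and Hspb6 422 and 339 TPM. These 3 were among the 5 of 10 tested genes called higher in replicate 1, against 10.8% of all genes tested, and 1 gene was called lower, against 10.7%. Hspa8 had the largest ratio of those averaging at least 100 counts, 0.48. The calls were 8 and 0 of the 10 when scaled by spike-ins, against 31% and 4.6% of all genes tested. By total counts they were 4 and 3, against 5.21% and 25.7%. Cryab, Hspa8 and Hspb6 stood above 0 under each.

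Of 18 genes for enzymes known to modify or break down intermediate filaments, 15 passed 1 TPM in both libraries, with a median of 20.9 TPM. Vcp, the unfoldase that extracts proteins for degradation, had 109 TPM in replicate 1 and 112 TPM in replicate 2. The calpain Capn1 had 46.8 and 43.4 TPM and the peptidylarginine deiminase Padi2 40.8 and 37.0 TPM. The genes that did not pass were the caspase gene Casp6, at 0.78 and 1.22 TPM, and the mitotic kinase genes Cdk1, at 0 and 0.37 TPM, and Aurkb, at 0 and 0.09 TPM. Of the 16 tested, 3 were called higher and 3 lower in replicate 1, against 10.8% and 10.7% of all genes tested. With spike-ins 8 and 0 of the 16 were called, against 31% and 4.6% of all genes, and by total counts 1 and 4, against 5.21% and 25.7%. Rock2, a kinase of vimentin and desmin, had the largest ratio of those averaging at least 100 counts, 0.39.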

How the data were processed

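Gene and transcript tables of both libraries were used as the authors deposited them, on mm10 with GENCODE M21, per the deposited notes. Per the file headers, RSEM names the columns of the first quantification and kallisto those of the second. Aligner, versions and strand setting: not given in the sources used here. Deposited expected counts (first) and estimated counts (second) are not normalized. Deposited TPM values cover all entries, and the deposited percent column gives each transcript's share of its gene, recomputed here from TPM. The 26345 entries outside the gene annotation used here (genes with numeric identifiers, spike-ins, phage control) stayed out of library sizes.

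Expected counts were rounded, scaled with TMM (edgeR 4.0.16, R 4.3.3) and compared by a conditional binomial test, exact and two-sided, checked on simulated data. No quasi-likelihood test could be fitted with 1 library per animal and 1 group. Log2 ratios used a prior of 1 count. Members, lists and the rule for named genes were chosen with earlier results of these data known. The rule took all 5 genes, the 3 most abundant genes and the largest ratio of each list, 2 per marker list, and transcripts with 5% or more of their gene. Casp6, Cdk1, Aurkb, Nebl and Col17a1 lie outside it, as few enough to name after their values were seen. Nothing in the labels says that the animals' RNA was prepared apart, so SDs and p-values measure the spread between these 2 libraries, which may be technical. Alternatives were DESeq2 1.42.0 size factors, spike-in and total-count scaling, other minimums and priors, the second quantification, TPM rescaled to nuclear protein-coding genes, and each animal left out. Posterior mean TPM, complete transcripts alone, and list counts with an animal left out were added after the data were seen. Scripts ran in Python 3.11.15 with scipy 1.17.1, pandas 2.3.3, matplotlib 3.10.9 and numpy 2.4.6.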

Additional observations from a re-analysis of the deposited data

How the results depend on the processing

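No paired analysis was possible because the labels give 1 group, so no group shares replicate numbers with another, and a ratio between animals cannot be formed with an animal left out. Of 226 alternatives in all, 154 changed a setting and 72 left out an animal. In the first kind 97 stayed on the same side and within the spread, 47 moved, 5 lost a call, 1 gained one and 4 turned direction.

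TPM rescaled to nuclear protein-coding genes was 2487 for Des, 528 for Synm, 84.0 for Vim, 48.8 for Sync and 885 for Plec. The second quantification gave 1140, 196, 30.4, 18.8 and 242 TPM, log2 ratios to Des of −2.54 for Synm, −2.24 for Plec, −5.23 for Vim and −5.92 for Sync, and shares of 68.1% for Des-201, 78.3% for Synm-201 and 50.6% for Vim-206. In it Plec first exons 9, 10, 4 and 8 held 4.25%, 60.1%, 4.12% and 2.53%. Complete transcripts gave Plec 195 TPM, first exons 10, 4 and 8 24.0%, 19.5% and 16.9%, and the 15-base exon 41.2%. By counts not divided by length Plec ranked 1 on the mean and in replicate 1, below Des in replicate 2, and first exons 10, 4 and 8 held 29.6%, 17.5% and 15.9%, the 15-base exon 46.4%, Des-201 99.6% and Vim-206 49.4%. The posterior mean gave Synm-201 88.4%.

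The ratio of Des was 0.0254 by spike-ins (adjusted p = 0.00158, exact binomial test), that of Sync 0.0308 (0.756) and of Vim −0.0425 (0.583). By total counts Synm stood at −0.0290 (0.0149), Plec at −0.0888 (2.79e-35) and Sync at −0.232 (0.00103). With an assumed variation of 0.1 the ratios −0.124 of Des, 0.0842 of Synm, −0.192 of Vim and 0.0244 of Plec had adjusted p-values of 1. Genes called were 5018 by spike-ins (87.1% higher in replicate 1), 4363 by total counts (16.8% higher) and 291 with assumed variation. Apart from each scaling shifting all ratios alike, the cause was not tested.

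At 0.5 TPM list counts were 1 simple keratin, 1 stratified keratin and 2 skin markers. At 5 TPM they were 6 fibroblast, 5 endothelial, 4 smooth muscle, 1 macrophage, 3 Schwann, 3 satellite, 5 adipocyte and 0 skin markers. With an animal left out stratified keratins ranged over 0 to 1 and skin markers over 1 to 2.

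Depth limits the keratins and neurofilaments, at or near 0 counts. With 2 animals, shares of Plec first exons 9 and 10, whose own bases are few, were not ordered alike by every estimate. First exon 10 was ahead of first exon 9 in both animals by the second quantification, and by the posterior mean with incomplete transcripts counted. Over complete transcripts the posterior mean put first exon 9 ahead of it in replicate 2, at 23.5% against 17.4%. In the TPM of the first table the ranges of the pair overlapped, and among its complete transcripts the leader differed between the animals.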
